A study of Mus musculus with 6 samples.

Results

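The genes described here are 10 genes of cytokine and NF-kappaB signalling, namely Il6ra, Il6st, Stat3, Socs3, Il1r1, Tnfrsf1a, Relb, Nfkbia, Icam1 and Ccl2, out of 18193 genes that the array annotation names with a single symbol. Every probe set whose only symbol was 1 of these 10 was taken, which gave 24 of the 45101 probe sets on the array, and no member symbol occurred in a probe set with several symbols. A probe set is a group of short probes that reads 1 transcript, mostly near its 3′ end, and a gene can have several. RNA came from adrenal medulla microdissected out of 12 µm frozen sections of male C57/Bl6 mice. The animals had undergone, 8 weeks earlier, transverse aortic constriction (TAC, a surgical narrowing of the aorta that puts a pressure load on the heart) or a sham operation, with 3 arrays in the TAC group and 3 in the sham group. Each array held RNA of both medullae of 1 animal, amplified in a pair of cycles from the 3′ end. The labels do not state the age of the mice.

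Interleukin-6 and related cytokines act through a receptor that contains gp130 (encoded by Il6st), whose kinases activate the transcription factor STAT3, and STAT3 induces its own inhibitor SOCS3. Interleukin-1 and tumour necrosis factor (TNF) act through their receptors to destroy the inhibitor IkappaB-alpha (encoded by Nfkbia), which frees NF-kappaB to induce adhesion molecules, chemokines and IkappaB-alpha itself. Chromaffin cells, which secrete adrenaline and noradrenaline, are known from cultures of bovine cells to respond to such cytokines.

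Promoter windows from RefSeq (GRCm38.p6, 250 bases before to 50 bases after the gene start) were held for 8 of the 10 genes, as 9 windows. The 4 windows below are shown because they belong to the feedback inhibitors of both pathways (Nfkbia and Socs3) and to the pair of genes whose highest values came from the same arrays (Icam1 and Tnfrsf1a), a choice made with the values known. Each is printed 5′ to 3′ in the direction of the gene, with the motif match in capitals. In Nfkbia the capitals mark the NF-kappaB consensus, searched on both strands and found here on the opposite strand as GGGAATTTCC, and in the other genes they mark TTCNNNGAA, a STAT-type motif that reads the same on both strands.
Nfkbia, chr12:55492598-55492897, minus strand: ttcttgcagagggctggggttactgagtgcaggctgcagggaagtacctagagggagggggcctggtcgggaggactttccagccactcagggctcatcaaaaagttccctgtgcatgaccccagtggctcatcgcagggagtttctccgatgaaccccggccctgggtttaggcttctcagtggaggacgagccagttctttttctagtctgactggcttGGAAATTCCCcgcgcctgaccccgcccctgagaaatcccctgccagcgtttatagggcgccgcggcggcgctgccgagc
Socs3, chr11:117969317-117969616, minus strand: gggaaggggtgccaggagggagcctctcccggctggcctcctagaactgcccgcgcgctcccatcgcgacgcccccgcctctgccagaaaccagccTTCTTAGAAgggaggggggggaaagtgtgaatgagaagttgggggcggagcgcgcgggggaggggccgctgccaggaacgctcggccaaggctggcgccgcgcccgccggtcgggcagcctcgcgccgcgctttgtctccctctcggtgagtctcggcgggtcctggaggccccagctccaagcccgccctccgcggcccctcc
Icam1, chr9:21015690-21015989, plus strand: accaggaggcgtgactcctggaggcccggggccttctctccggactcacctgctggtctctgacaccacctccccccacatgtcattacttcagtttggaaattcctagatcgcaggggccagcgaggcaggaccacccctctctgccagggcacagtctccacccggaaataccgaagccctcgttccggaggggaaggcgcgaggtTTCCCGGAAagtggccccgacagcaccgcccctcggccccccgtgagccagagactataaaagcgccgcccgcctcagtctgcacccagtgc
Tnfrsf1a, chr6:125349473-125349772, plus strand: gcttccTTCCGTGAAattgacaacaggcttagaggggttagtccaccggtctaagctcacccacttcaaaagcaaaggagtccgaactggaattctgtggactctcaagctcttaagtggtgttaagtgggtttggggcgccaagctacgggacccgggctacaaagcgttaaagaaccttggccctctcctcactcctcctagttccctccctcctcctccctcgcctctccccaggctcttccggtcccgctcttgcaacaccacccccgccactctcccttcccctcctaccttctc

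Counted from 1 at the 5′ end of the window, the match lay at bases 222 to 231 in Nfkbia, 97 to 105 in Socs3, 209 to 217 in Icam1 and 7 to 15 in Tnfrsf1a. The NF-kappaB consensus was present in 2 of the 9 member windows (Nfkbia and 1 of the windows of Il1r1), against 8.46% of all 32851 windows. TTCNNNGAA was present in 3 of the 9 (Socs3, Icam1 and Tnfrsf1a), against 8.30% of all windows. The NF-kappaB consensus searched was GGGRNNYYCC, where R is A or G, Y is C or T and N is any base. No printed window held a full match to both motifs. Near matches were not counted. The Icam1 window, for instance, also holds tggaaattcc and the Nfkbia window aggactttcc, each of which departs from the NF-kappaB consensus in its first letter only. A match describes letters in the window, not binding, and the arrays measured no binding.

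All values below are log2 intensities, the difference is TAC minus sham on that scale, SD gives the spread over the 3 arrays of a group and SE is limma's standard error. A probe set was tested if it reached log2 4 on at least 3 of the 6 arrays, whatever their group, which 18188 probe sets did. The medulla was recognised in every array, since all 6 chromaffin cell markers (Th, Ddc, Dbh, Pnmt, Chga and Chgb) were measured, at a mean of 13.18 to 14.09 in TAC arrays and 13.47 to 13.87 in sham arrays. The log2 level of the Gapdh control at its 3′ end minus that at its 5′ end was taken for each array. Shortened transcripts raise this difference, and amplification from the 3′ end can raise it too. It varied within groups, at 4.71, 3.67 and 3.98 in TAC arrays 1 to 3. In sham arrays 1 to 3 it was 5.15, 3.08 and 2.88 (exact permutation p = 0.6, 2-sided). For the Actb control it was 6.83, 4.58 and 5.69 in TAC arrays and 7.93, 3.31 and 3.93 in sham arrays (exact permutation p = 0.7). The mean of 5 adrenal cortex markers was 9.04, 7.51 and 5.45 in TAC arrays 1 to 3 and 7.27, 5.90 and 10.82 in sham arrays 1 to 3 (exact permutation p = 0.7), so sham 3 and TAC 1 held the most cortex signal. The smallest p that 3 against 3 arrays allow in this test is 0.1.

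Of the 24 member probe sets, 15 were tested, covering 6 genes (Il6st, Stat3, Socs3, Tnfrsf1a, Nfkbia and Icam1). The other 9 lay below log2 4 on all 6 arrays, between 1.88 and 3.93, and they include every probe set of Il6ra, Il1r1, Relb and Ccl2. No member probe set had a limma adjusted p under 0.05 (0 of 15), as was so for the whole table (0 of 18188, or 0%), with 0.384 as its lowest adjusted p. Unadjusted, 1 of 15 had a p under 0.05, against 6.94% of all tested probe sets. This number was 2 of 15 after median, quantile and cyclic loess scaling (against 7.48%, 7.83% and 8.36% of all tested probe sets), 2 without the filter (4.69%) and 2 with a floor at log2 4 (7.30%). Among probe sets whose mean reached log2 6 it was 0 of 8 (8.21%). Leaving out TAC 1 or sham 3 gave 3 each (against 6.45% and 4.25%), and leaving out TAC 3 or sham 1 gave 2 each (against 3.82% and 13.4%). With both sham 1 and TAC 1 left out it was 4 (13.8%). By direction, 9 members were higher and 6 lower after TAC, with a median difference of 0.09, while 54.7% of all tested probe sets were higher, with a median of 0.05. The groups did not overlap at 2 of the 15, against 13.0% of all tested probe sets, so both counts were near the share of the whole table. Both of these probe sets were lower after TAC, a direction without overlap that 4.01% of all tested probe sets showed. The median difference of the members ranged from -0.04 without sham 3 to 0.27 without sham 2 when single arrays were left out, with 0.19 without TAC 3, 0.13 without sham 1 and 0.04 without TAC 2. It was -0.07 without sham 3 and TAC 1 together, 0.02 after quantile scaling and -0.013 after cyclic loess scaling.

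**Figure D1:**
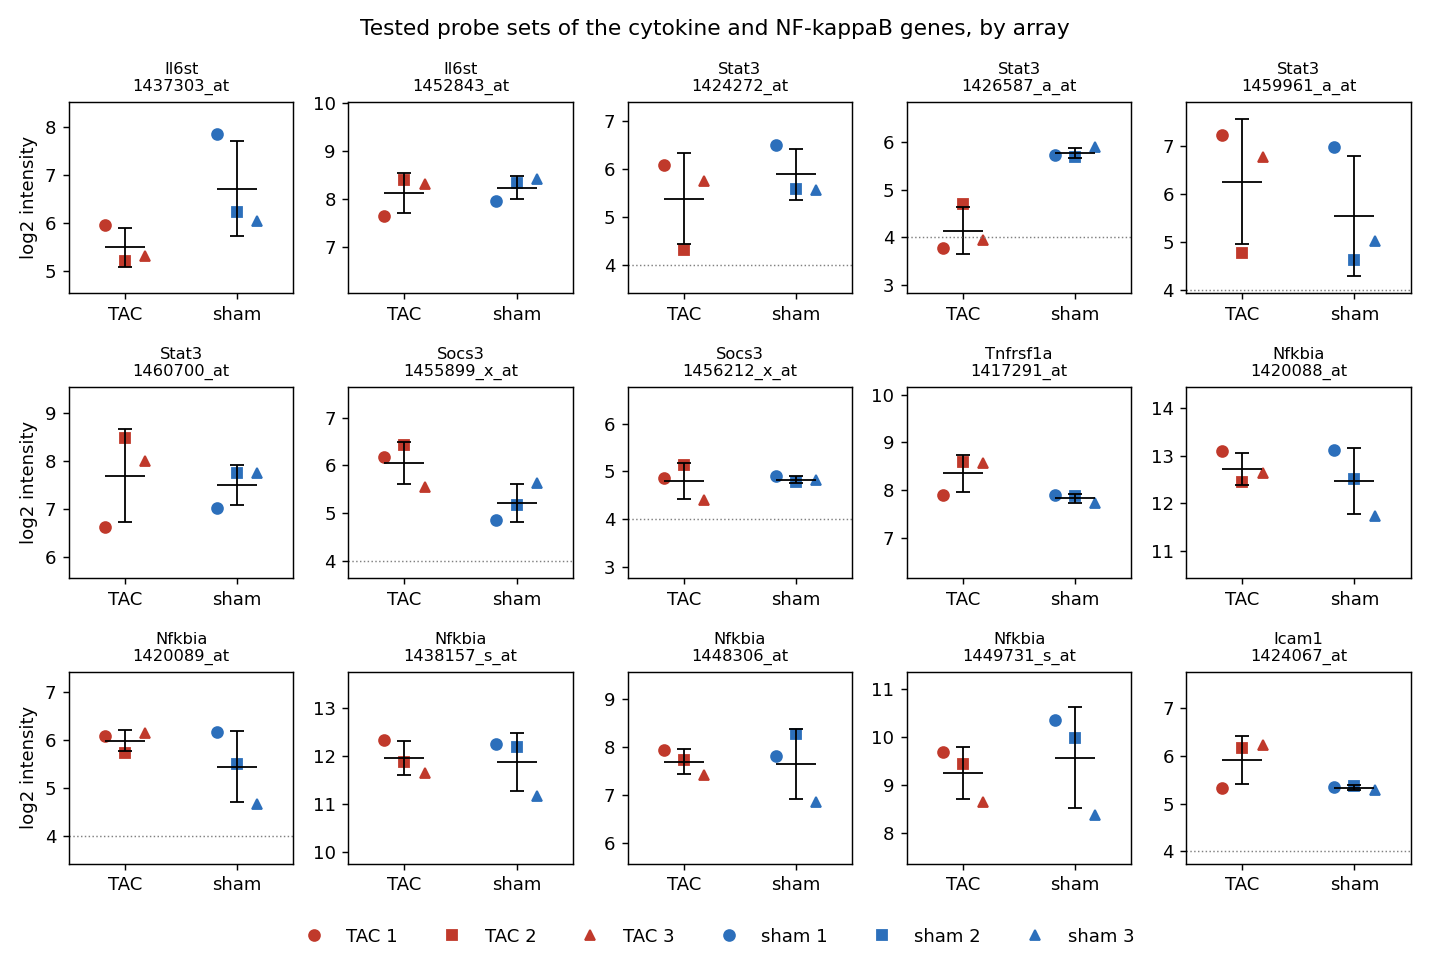
Log2 intensity of each of the 15 tested probe sets in the 3 TAC arrays (red, left) and the 3 sham arrays (blue, right), with a different marker for each array number, the group mean and SD in black, a vertical span of equal length in every panel, and log2 4 as a dotted line. The groups are apart for Stat3 1426587_a_at and Il6st 1437303_at, and for Icam1 and Tnfrsf1a TAC 1 lies with the sham arrays.

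Il6ra, the receptor subunit that binds interleukin-6, was read by a pair of probe sets that stayed below the filter, between 2.35 and 3.87 over all arrays. Il1r1, the signalling receptor of interleukin-1, likewise lay between 2.64 and 3.93. These levels give no measurement of a difference, and they do not show that the transcripts are absent.

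Il6st, which encodes gp130, was read by 4 probe sets, of which 2 were tested, and these gave different pictures. Probe set 1437303_at measured 5.96, 5.20 and 5.31 in TAC arrays 1 to 3, against 7.85, 6.23 and 6.04 in sham arrays 1 to 3. All TAC values were below all sham values, but TAC 1 and sham 3 were only 0.08 apart and sham 1 stood well above the rest. The difference was -1.22 ± 0.54 SE (0.43-fold, 95% interval -2.53 to 0.09, limma adjusted p = 0.745). Without sham 1 it was -0.65 (unadjusted p = 0.093). In TAC 1, TAC 3 and sham 1, whose Gapdh 3′ minus 5′ difference was larger, it was -2.22. In TAC 2, sham 2 and sham 3 it was -0.94. Each of these parts holds a single array of 1 group, so they carry no test. The part of RNA quality in this reading was not tested. Probe set 1452843_at measured 7.64, 8.41 and 8.33 in TAC arrays, against 7.97, 8.33 and 8.43 in sham arrays, so the groups covered the same range (difference -0.12 ± 0.30 SE, interval -0.85 to 0.62, adjusted p = 0.990). Its sign turned without TAC 1 (0.13). The remaining Il6st probe sets lay between 2.39 and 2.95.

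Stat3, the transcription factor downstream of gp130, was read by 4 tested probe sets that did not move together. Probe set 1426587_a_at had the smallest p of all members. It measured 3.77, 4.71 and 3.95 in TAC arrays 1 to 3, against 5.71, 5.68 and 5.89 in sham arrays 1 to 3. Each TAC array was lower than every sham array, by 0.98 at the closest, and TAC 1 and TAC 3 were below the log2 4 filter. The difference was -1.62 ± 0.31 SE (0.33-fold, 95% interval -2.37 to -0.87, unadjusted p = 0.0018, limma adjusted p = 0.417). With values under log2 4 set to 4 it was -1.53 (adjusted p = 0.359). Leaving out any 1 array moved it between -1.90 and -1.43.

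The other Stat3 probe sets did not separate the groups. Probe set 1424272_at measured 6.10, 4.30 and 5.75 in TAC arrays, against 6.51, 5.59 and 5.57 in sham arrays (difference -0.51 ± 0.55 SE, adjusted p = 0.979). TAC 2 alone was low, and without it the difference was 0.03. Probe set 1459961_a_at measured 7.23, 4.78 and 6.78 in TAC arrays, against 6.98, 4.63 and 5.02 in sham arrays (difference 0.72 ± 0.87 SE, adjusted p = 0.980). Leaving out single arrays moved this difference between 0.24 (without TAC 1) and 1.47 (without TAC 2). Probe set 1460700_at measured 6.62, 8.48 and 8.00 in TAC arrays, against 7.02, 7.76 and 7.74 in sham arrays (difference 0.19 ± 0.53 SE, adjusted p = 0.991), and its sign turned without TAC 2 (-0.20) or without sham 1 (-0.05).

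For 1459961_a_at the 3 highest arrays, TAC 1, sham 1 and TAC 3, were those in which the Gapdh 3′ minus 5′ difference was largest, and TAC 1 and sham 1 were the lowest arrays for 1460700_at. In TAC 1, TAC 3 and sham 1, whose Gapdh difference was larger, TAC minus sham was 0.03 for 1459961_a_at, and in TAC 2, sham 2 and sham 3 it was -0.04. The same values for 1426587_a_at were -1.85 and -1.08. For 1424272_at they were -0.59 and -1.28, and for 1460700_at 0.29 and 0.73. Each of these parts sets a single array of 1 group against a pair of the other, so they carry no test. The parts of RNA quality and of amplification in these readings were not tested.

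**Figure D2:**
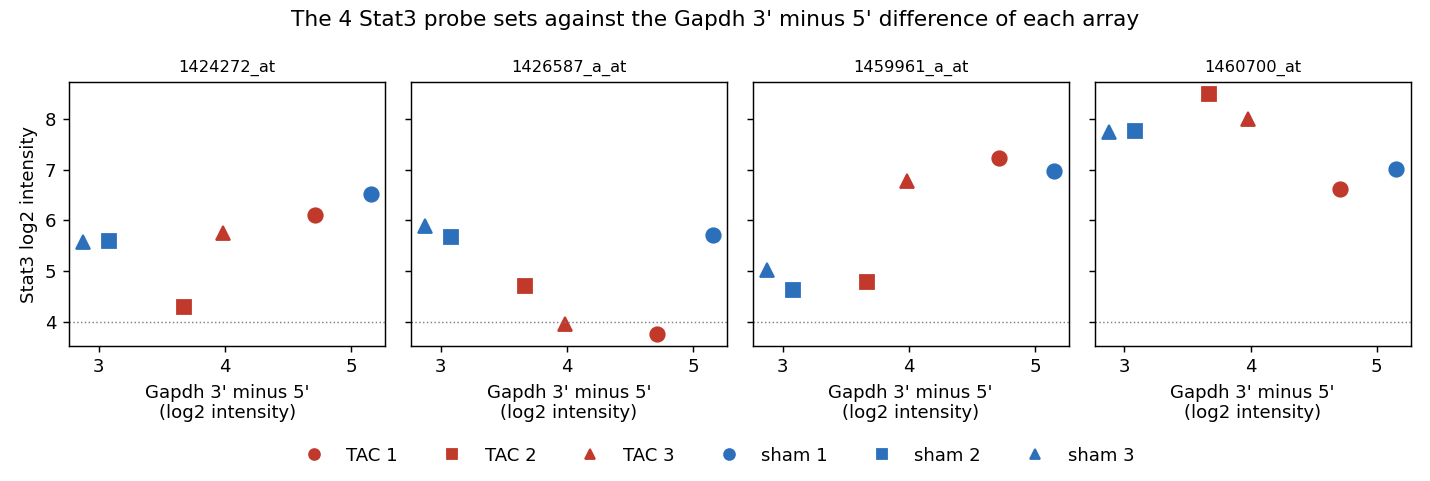
Log2 intensity of the 4 Stat3 probe sets (vertical axis) against the Gapdh 3′ minus 5′ difference of the same array (horizontal axis, log2), TAC arrays in red and sham arrays in blue, with log2 4 as a dotted line. In 1459961_a_at the 3 arrays at 3.98 or more on the horizontal axis lie above the other 3, while in 1426587_a_at sham 1, at 5.15, lies with the other sham arrays.

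Socs3, the feedback inhibitor of this pathway, had 3 probe sets, 2 of them tested, and both tested ones carry a suffix (x) that marks probes which can cross-hybridise with other transcripts. Probe set 1455899_x_at measured 6.17, 6.42 and 5.56 in TAC arrays 1 to 3, against 4.85, 5.17 and 5.64 in sham arrays 1 to 3. TAC 1 and TAC 2 were above every sham array, and TAC 3 was just below sham 3. The difference was 0.83 ± 0.34 SE (1.78-fold, 95% interval -0.0019 to 1.66, unadjusted p = 0.0504, limma adjusted p = 0.718). It was 1.01 in the same 3 arrays of larger Gapdh difference and 1.02 in the other 3. Probe set 1456212_x_at measured 4.85, 5.13 and 4.39 in TAC arrays, against 4.90, 4.77 and 4.82 in sham arrays, with the sham values inside the TAC range (difference -0.04 ± 0.27 SE, interval -0.68 to 0.61, adjusted p = 0.998). The sign of this second reading turned without TAC 3 (0.16). The probe set that carries no such suffix, 1416576_at, was below the filter, at 3.59, 2.78 and 3.55 in TAC arrays and 3.68, 3.54 and 3.46 in sham arrays.

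Tnfrsf1a, the main receptor for soluble TNF, was read by 1 probe set. It measured 7.90, 8.59 and 8.57 in TAC arrays 1 to 3, against 7.91, 7.87 and 7.73 in sham arrays 1 to 3. TAC 2 and TAC 3 were above all sham arrays, and TAC 1 lay inside the sham range. The difference was 0.52 ± 0.27 SE (1.43-fold, 95% interval -0.15 to 1.18, limma adjusted p = 0.831), and 0.74 without TAC 1 (unadjusted p = 0.0267). It was 0.40 without TAC 2 (unadjusted p = 0.250) and 0.41 without TAC 3 (unadjusted p = 0.270). The spread of the sham arrays was small (SD 0.09) beside that of the TAC arrays (SD 0.39).

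Icam1, which encodes an adhesion molecule of endothelial and immune cells and is a classical NF-kappaB target, gave the same picture. It measured 5.33, 6.16 and 6.22 in TAC arrays 1 to 3, against 5.34, 5.37 and 5.27 in sham arrays 1 to 3. TAC 2 and TAC 3 were again above all sham arrays, and TAC 1 was again among them. The difference was 0.57 ± 0.31 SE (1.49-fold, 95% interval -0.18 to 1.32, limma adjusted p = 0.833), and 0.86 without TAC 1 (unadjusted p = 0.0143). It was 0.44 without TAC 2 (unadjusted p = 0.257) and 0.42 without TAC 3 (unadjusted p = 0.292). In the arrays of larger and of smaller Gapdh difference it was 0.43 and 0.84 for Icam1, and 0.33 and 0.78 for Tnfrsf1a. The promoter windows of both genes are printed above.

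In bulk tissue, more cells of a type and more RNA per cell cannot be told apart, so markers of the cells that can carry Icam1 were set beside it. Of 6 endothelial markers 3 were tested, with Pecam1, Cdh5 and Kdr below the filter, and their mean was 4.63, 6.12 and 5.13 in TAC arrays 1 to 3, against 5.01, 6.25 and 6.35 in sham arrays 1 to 3. These markers differed in sign. Eng, at 6.84, 8.02 and 7.82 in TAC arrays 1 to 3 and 6.52, 6.86 and 7.16 in sham arrays 1 to 3, was highest in TAC 2 and TAC 3 as Icam1 was (0.72, limma adjusted p = 0.833), while Tek and Emcn read -1.17 and -1.28. The other tested probe set of Eng read -0.09. Of 10 macrophage markers 8 were tested, with Cd68 and C1qc below the filter, and their mean was 6.34, 7.82 and 7.07 in TAC arrays, against 6.20, 7.71 and 7.75 in sham arrays. Of these, 2 were higher after TAC and 6 lower, from -1.03 for Lyz2 to 1.01 for Csf1r, whose TAC arrays were all above its sham arrays (unadjusted p = 0.0066, limma adjusted p = 0.475). Of 8 measured lymphocyte and neutrophil markers 2 were tested, Ms4a1 and Ptprc, the second of which macrophages carry too. Their mean was 5.71, 5.87 and 6.01 in TAC arrays, against 5.56, 5.81 and 5.78 in sham arrays. Cd3e, Cd3g, Cd8a, S100a8, S100a9 and Mpo were below the filter, so no neutrophil marker was tested. Ms4a1 lay near the filter, between 3.75 and 4.73. It was highest in TAC 1 (4.39) and sham 1 (4.73) of their groups, where Ptprc was lowest (7.03 and 6.40). The 6 fibroblast markers had a mean of 5.92, 7.33 and 6.83 in TAC arrays, against 6.87, 8.43 and 8.47 in sham arrays. By direction 1 fibroblast marker was higher after TAC and 5 were lower, with a median difference of -1.53. At a limma unadjusted p under 0.05 there were 3, against 7.29% of all tested genes, and 0 passed after adjustment. The groups did not overlap at 2, against 14.2% of all tested genes. Within the TAC group each of these 4 marker means was lowest in TAC 1, the array with the lowest Icam1 and Tnfrsf1a values of that group. Within the sham group the same 4 means were lowest in sham 1, where Icam1 (5.34) and Tnfrsf1a (7.91) were not the lowest. The chromaffin marker mean was likewise lowest in TAC 1 (13.18) and sham 1 (13.47) of their groups. So was the median of all tested probe sets, at 6.50 in TAC 1 and 6.31 in sham 1. It was 7.01 and 6.68 in TAC 2 and TAC 3, and 6.89 and 6.91 in sham 2 and sham 3. A low mean in these arrays is thus not particular to these markers. Single markers also departed from their means, as Col1a1, Cx3cr1 and Ms4a1 were highest in TAC 1 within the TAC group. The part of cell composition in the Icam1 and Tnfrsf1a values was not tested.

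Relb, an NF-kappaB subunit of the non-canonical pathway, lay between 1.88 and 1.93 on all arrays and could not be compared. Nfkbia, which encodes the inhibitor IkappaB-alpha, was read above the filter by all 5 of its probe sets. Their group differences were small beside the spread between arrays, at 0.26 ± 0.41 SE for 1420088_at, 0.54 ± 0.42 for 1420089_at, 0.09 ± 0.38 for 1438157_s_at, 0.05 ± 0.41 for 1448306_at and -0.31 ± 0.59 for 1449731_s_at, with limma adjusted p-values from 0.939 to 0.998. The groups overlapped in all 5.

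Probe set 1420088_at of Nfkbia measured 13.09, 12.45 and 12.63 in TAC arrays 1 to 3, against 13.12, 12.52 and 11.74 in sham arrays 1 to 3 (95% interval of the difference -0.73 to 1.26). Probe set 1438157_s_at measured 12.34, 11.88 and 11.65 in TAC arrays, against 12.24, 12.19 and 11.17 in sham arrays (interval -0.84 to 1.01). Probe set 1449731_s_at measured 9.68, 9.42 and 8.64 in TAC arrays, against 10.35, 9.98 and 8.36 in sham arrays (interval -1.75 to 1.12). In each of them sham 3 was the lowest array, and sham 1 or TAC 1 the highest. Probe set 1420089_at measured 6.08, 5.73 and 6.14 in TAC arrays, against 6.17, 5.50 and 4.67 in sham arrays. Probe set 1448306_at measured 7.94, 7.72 and 7.42 in TAC arrays, against 7.81, 8.28 and 6.85 in sham arrays.

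Sham 3 was thus the lowest array for 5 of the 5 Nfkbia probe sets, and it was also the array with the highest cortex marker mean (10.82). TAC 1, with the second highest cortex mean (9.04), was not low for Nfkbia. Without sham 3 the differences were -0.10, 0.15, -0.26, -0.35 and -0.92, in the order in which the 5 were first given, so that 3 of the 4 positive values turned negative. Without sham 1, 1420089_at was at 0.90 (unadjusted p = 0.0419). Sham 3 also had the smallest Gapdh 3′ minus 5′ difference (2.88), and sham 1 and TAC 1 the largest (5.15 and 4.71). In the 3 arrays of larger Gapdh difference the 5 Nfkbia differences were -0.26, -0.06, -0.25, -0.13 and -1.18, in the same order, and in the other 3 arrays 0.32, 0.64, 0.20, 0.16 and 0.25. The parts of cortex tissue, of RNA quality and of amplification in the Nfkbia values were not tested.

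**Figure D3:**
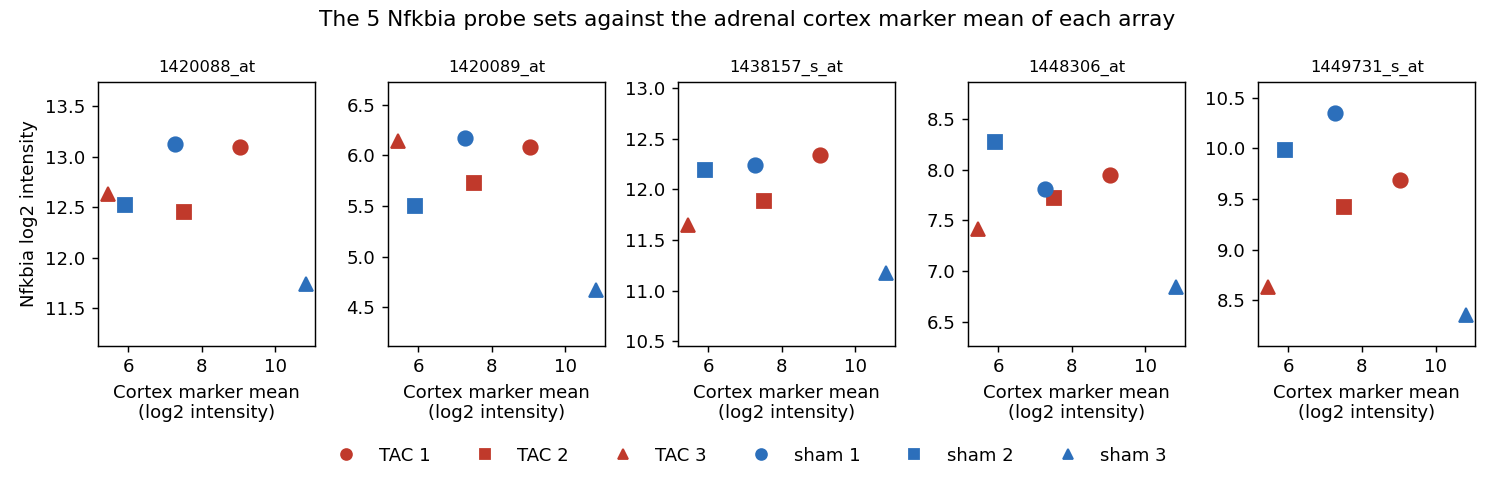
Log2 intensity of the 5 Nfkbia probe sets (vertical axis, the same span in each panel) against the mean log2 intensity of 5 adrenal cortex markers in the same array (horizontal axis), TAC arrays in red and sham arrays in blue. Sham 3, at 10.82 on the horizontal axis, is lowest in each panel, and TAC 1, at 9.04, is not.

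Ccl2, a chemokine that attracts monocytes and is a target of both pathways, stayed below the filter, at 3.16, 3.03 and 3.07 in TAC arrays 1 to 3 and 3.29, 3.07 and 2.98 in sham arrays 1 to 3. Of the 4 members with several tested probe sets, 3 (Stat3, Socs3 and Nfkbia) were read with both signs. When arrays were weighted by their estimated quality, 6 of the 15 member probe sets had an adjusted p under 0.05, against 36.8% of all tested probe sets. These were Il6st 1437303_at (-0.83, limma adjusted p = 0.0212), Stat3 1426587_a_at (-1.81, adjusted p = 0.0036) and 1459961_a_at (1.82, adjusted p = 0.0105), Tnfrsf1a (0.73, adjusted p = 0.0121), Nfkbia 1420089_at (1.02, adjusted p = 0.0244) and Icam1 (0.84, adjusted p = 0.0110). Socs3 1455899_x_at was at 0.24 with these weights (adjusted p = 0.421), against 0.83 without them. The weight was 6.11 for TAC 3, against 0.40 for TAC 1 and 0.36 for TAC 2, so these TAC values rest mostly on 1 array, and sham 1 had a weight of 0.14.

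**Figure D4:**
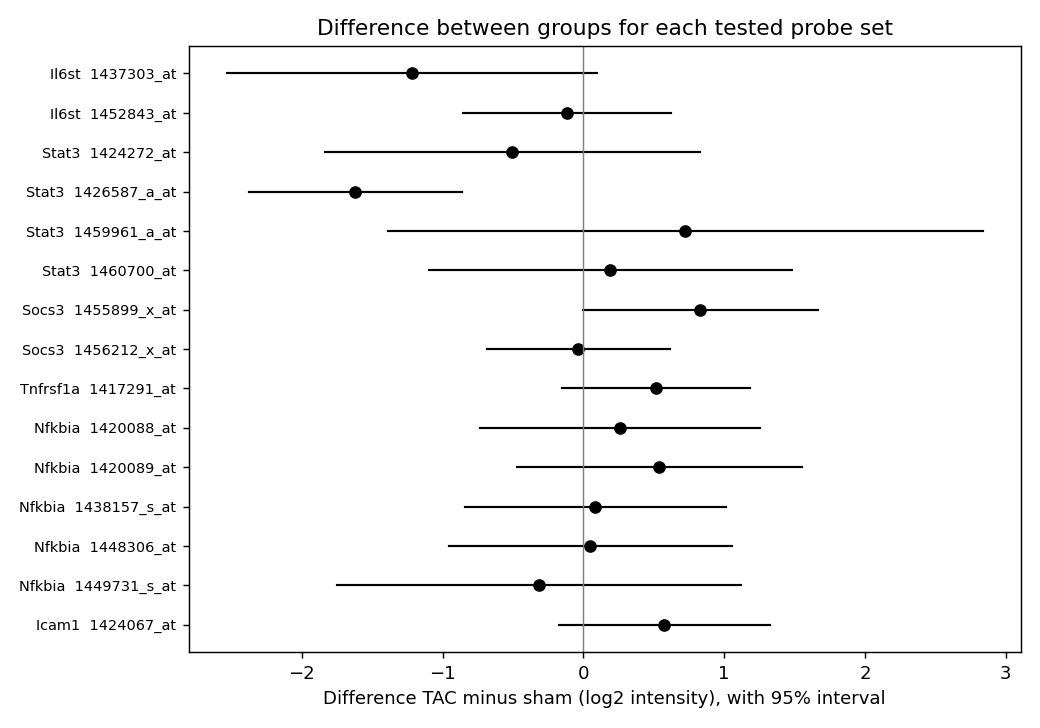
Difference TAC minus sham (log2 intensity, points) with its 95% interval from limma (lines) for each of the 15 tested probe sets, ordered by the role of the gene. The interval of 1 probe set, Stat3 1426587_a_at, lies wholly on one side of 0, and the adjusted p of that probe set was 0.417.

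The other genes of these pathways were followed in 4 lists, each gene by its probe set with the highest mean. Together 41 of their genes were tested, and none passed the limma threshold (0 of 41, and 0 of 10181 tested genes, or 0%). At an unadjusted p under 0.05 there were 3 of 41, against 7.29% of all tested genes. By direction 27 were higher and 14 lower after TAC, with a median difference of 0.09, and over all tested genes 58.7% were higher, also with a median of 0.09. The groups did not overlap at 8 of the 41, against 14.2% of all tested genes. With array weights, 9 of the 41 had a limma adjusted p under 0.05, against 33.6% of all tested genes.

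In the interleukin-6 family and JAK-STAT list 7 of 11 tested genes were higher and 4 lower (median 0.09, but -0.007 after cyclic loess scaling, -0.12 without sham 1 and 0.35 without TAC 1), with 0 at an unadjusted p under 0.05. Tyk2, a kinase of cytokine receptors, measured 6.79 ± 0.71 (SD) in TAC medulla and 6.13 ± 0.27 in sham medulla (difference 0.66 ± 0.41 SE, limma adjusted p = 0.888), and the difference was 0.40 without TAC 1 and 1.06 without TAC 2 (unadjusted p = 0.0135). Cntfr, the receptor subunit for ciliary neurotrophic factor, measured 6.05 ± 0.16 in TAC medulla and 5.71 ± 0.20 in sham medulla (0.34 ± 0.23 SE, adjusted p = 0.918). Il6 itself lay between 2.27 and 2.33 in TAC arrays and 2.26 and 2.38 in sham arrays, below the filter, as did the ligand genes Lif, Osm, Il11, Clcf1 and Ctf1.

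In the list of interleukin-1 and TNF ligands, receptors and adaptors 6 of 10 tested genes were higher and 4 lower (median 0.33), with 2 at an unadjusted p under 0.05. Il18, which encodes a cytokine of the interleukin-1 family, measured 8.13, 8.40 and 8.48 in TAC arrays 1 to 3, against 7.63, 7.53 and 7.77 in sham arrays 1 to 3. All TAC arrays were above all sham arrays (difference 0.69 ± 0.22 SE, 95% interval 0.14 to 1.24, unadjusted p = 0.0211, limma adjusted p = 0.589). After median, quantile and cyclic loess scaling the limma unadjusted p of Il18 was 0.054, 0.065 and 0.102. Tab2, an adaptor that links both receptors to the kinase TAK1, measured 10.68, 11.12 and 10.84 in TAC arrays, against 10.34, 10.19 and 9.92 in sham arrays (0.73 ± 0.25 SE, adjusted p = 0.616), while its other tested probe set read -1.02. After the same scalings the limma unadjusted p of the higher Tab2 reading was 0.066, 0.058 and 0.077. Il1b, an inflammatory cytokine mainly of macrophages, measured 4.88, 6.49 and 5.19 in TAC arrays, against 4.06, 5.88 and 3.93 in sham arrays, with overlap between the groups (0.89 ± 0.67 SE, adjusted p = 0.934), and the difference ran from 0.41 without TAC 2 to 1.52 without sham 2 (unadjusted p = 0.0388) when single arrays were left out. Tnf lay between 2.63 and 2.76 in TAC arrays and 2.70 and 2.92 in sham arrays, below the filter.

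Among NF-kappaB subunits, inhibitors and kinases 8 of 9 tested genes were higher and 1 lower (median 0.13, but -0.02 without sham 1, 0.33 without TAC 1 and 0.34 without sham 3), with 0 at an unadjusted p under 0.05. Rela, the main activating subunit, measured 7.38 ± 0.66 (SD) in TAC medulla and 7.24 ± 0.37 in sham medulla (0.13 ± 0.40 SE, limma adjusted p = 0.994), and its sign turned without TAC 2 (-0.23) or sham 1 (-0.022). Nfkb2, the partner of Relb, measured 5.81 ± 0.65 in TAC medulla and 5.81 ± 0.87 in sham medulla (0.00 ± 0.55 SE, interval -1.33 to 1.33), and it took both signs over the alternatives. Its difference of 0.00014 is counted among the 8 higher genes. Nfkbie, another IkappaB inhibitor, differed by 0.44 ± 0.28 SE and Tnip1, a partner of the inhibitor A20, by 0.51 ± 0.39 SE, with adjusted p-values of 0.898 and 0.939. Nfkbie was at 0.28 without sham 1, and Tnip1 at 0.19 without sham 1 and 0.26 without TAC 2. Tnfaip3, which encodes A20 and is itself a target, was below the filter, and Nfkb1 was not analysed here.

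Among the other induced targets 6 of 11 tested genes were higher and 5 lower (median 0.02, but -0.08 after cyclic loess, -0.04 after quantile and -0.012 after median scaling, -0.12 without TAC 2, -0.13 when sham 3 was left out, 0.20 when sham 2 was, and 0.10 when both sham 1 and TAC 1 were), with 1 at an unadjusted p under 0.05. This was Bcl2l1, which encodes the survival protein Bcl-xL and is a target of STAT3 and NF-kappaB. It measured 7.73, 8.05 and 7.50 in TAC arrays 1 to 3, against 6.93, 7.09 and 7.01 in sham arrays 1 to 3. All TAC arrays were above all sham arrays (difference 0.76 ± 0.24 SE, 95% interval 0.17 to 1.34, unadjusted p = 0.0193, limma adjusted p = 0.581). After median, quantile and cyclic loess scaling the limma unadjusted p of Bcl2l1 was 0.031, 0.036 and 0.061. Csf1, a growth factor of macrophages, measured 6.33 ± 0.59 (SD) in TAC medulla and 5.94 ± 0.22 in sham medulla (0.39 ± 0.35 SE, adjusted p = 0.953), with a difference of 0.12 without TAC 2 and 0.70 without TAC 3. The target genes Cxcl2, Ccl5, Ccl7, Sele, Ptgs2, Nos2, Csf2, Saa3 and Lcn2 were below the filter.

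**Figure D5:**
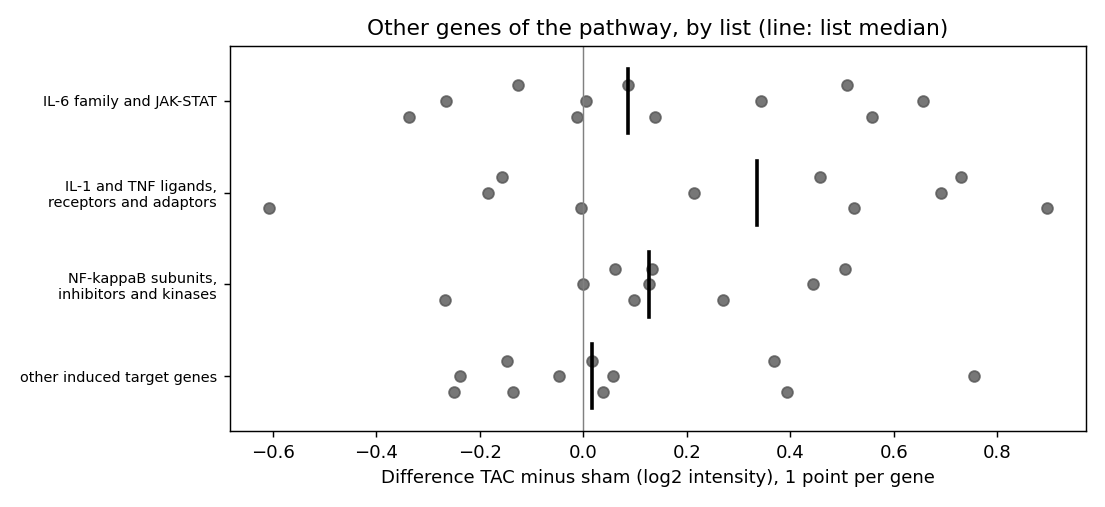
Difference TAC minus sham (log2 intensity) of each tested gene in the 4 pathway lists, 1 point per gene, with a line at the median of each list. The points lie between -0.61 and 0.89, and the list medians between 0.02 and 0.33.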

How the data were processed

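The deposited values are intensities on a linear scale, 1 per sample and probe set of an Affymetrix mouse expression array, already background-corrected and summarised by the authors. The submitters' processing notes name GCRMA without a version. Per the labels' protocols, each array held RNA of 1 animal. The values were log2-transformed and used as deposited, without scaling between arrays in the main fit. The arrays were not on 1 level, as the median of the tested probe sets ran from 6.31 (sham 1) to 7.01 (TAC 2). After 64 array controls were left out, the tested probe sets were those that reached log2 4 on 3 or more of the 6 arrays (18188, of which 15646 carried 1 symbol). The group difference was fitted by limma 3.58.1 (R 4.3.3) with lmFit and eBayes, without covariates and with 4 residual degrees of freedom, as a 2-sided test with Benjamini-Hochberg adjustment over all tested probe sets and a threshold of 0.05. The median standard error of a difference was 0.39, and precision is limited by the number of arrays. The procedure was tested on simulated data.

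Symbols came from GEO's platform annotation. The members and lists were chosen with earlier results of these data known. Named pathway genes were the 2 with the smallest unadjusted p in each list, plus Il6, Tnf, Il1b, Rela, Nfkb1, Nfkb2 and Tnfaip3. Members were named on every probe set. Alternatives were scaling between arrays over the tested probe sets, the filter, a floor at log2 4, array weights (limma's gene-by-gene method), the replicate number as a block and leaving out arrays.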

Additional observations from a re-analysis of the deposited data

How the results depend on the processing

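In the results given, 0 probe sets passed at an adjusted p under 0.05 under every alternative except array weights, where 6698 did. The unadjusted count was 1263 as reported, 2110 without a filter, 8749 with array weights, 641 to 2429 when single arrays were left out, and, in alternatives chosen after seeing the data, 640 without sham 3 and TAC 1 and 2507 without sham 1 and TAC 1. Same-numbered animals are not stated to be pairs, and their deviations correlated at 0.76, 0.78 and -0.22 for numbers 1 to 3. Deviations within a group of 3 sum to 0, so these values are tied and cannot decide whether animals were paired. The main fit used no pairing. With a replicate block the unadjusted count was 3005 and the adjusted count 0. Member differences changed sign in 20 of 233 recomputations. After cyclic loess, Nfkbia 1438157_s_at read -0.013 and 1448306_at -0.056. With array weights, 1448306_at read -0.077 and Stat3 1424272_at 0.095, while the pathway genes Rela and Csf1 read -0.17 and -0.20 and the median of the NF-kappaB subunit list was -0.17. Without sham 3 and TAC 1, Il6st 1452843_at read 0.22, Stat3 1459961_a_at -0.023, and Nfkbia 1420088_at -0.28, 1438157_s_at -0.45 and 1448306_at -0.48, and the NF-kappaB subunit list had a median of 0.56. Leaving out single arrays gave -0.26 to 0.13 for Il6st 1452843_at, -0.86 to 0.035 for Stat3 1424272_at, -0.20 to 0.73 for 1460700_at and -0.21 to 0.16 for Socs3 1456212_x_at. For Nfkbia it gave -0.10 to 0.59 (1420088_at), 0.15 to 0.90 (1420089_at), -0.26 to 0.27 (1438157_s_at), -0.35 to 0.36 (1448306_at) and -0.92 to 0.077 (1449731_s_at). For Rela it gave -0.23 to 0.41, for Nfkb2 -0.27 to 0.50 and for the median of the NF-kappaB subunit list -0.022 to 0.34. Nfkb2, at 0.00 as reported, read -0.059 after cyclic loess, -0.028 after median centring, -0.018 after quantile scaling and -0.49 without sham 3 and TAC 1. With array weights Nfkb2 read 0.65 (limma adjusted p = 0.0499). Pathway genes changed sign in 12 of 172 recomputations. The cause of these changes was not tested. Icam1, Tnfrsf1a, Socs3 1455899_x_at, Stat3 1426587_a_at, Il6st 1437303_at and Nfkbia 1420089_at kept their sign under every alternative in which they were tested. Signal near the background limits Il6ra, Il1r1, Relb and Ccl2.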
